A study of Mus musculus with 14 samples.

Results

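Male germ cells of postnatal day 3 (P3) mice that lacked both Jmjd1a and Jmjd1b, the genes listed in the files as Kdm3a and Kdm3b, were compared with germ cells of control mice of the same age by RNA sequencing. The comparison takes 4 of the 14 libraries of the series, 2 of the group P3 DKO and 2 of the group P3 Ctrl. Per the labels, all mice were C57BL/6 and all 4 libraries carry Vasa-Cre, a recombinase driven in germ cells. P3 DKO is Vasa-Cre; Jmjd1a-/-; Jmjd1b-/-, and P3 Ctrl is Vasa-Cre; Jmjd1a-/+; Jmjd1b-/+, so the controls also carry 1 deleted copy of each gene. The groups P7 DKO and P7 Ctrl, 2 libraries each, have the same pair of genotypes at day 7 and share no library with the day 3 groups. Values are also given for P3 Jmjd1aKO (Vasa-Cre; Jmjd1a-/-; Jmjd1b-/+), P3 Jmjd1bKO (Vasa-Cre; Jmjd1a-/+; Jmjd1b-/-) and P3 WT, labelled only as wild type, with 2 libraries each. No sort of the cells is named in the labels, nor whether replicates were separate mice, so p-values measure the spread between these samples, which may be technical. Values are RPKM, in which reads are corrected for the length of the transcript and for sequencing depth, and changes are differences in log2(RPKM + 1), which understates the change of genes with low values.

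Jmjd1a and Jmjd1b encode demethylases of histone H3 lysine 9 (H3K9). The mark they erase, in its dimethyl form, is laid down mainly by the pair of methyltransferases encoded by Ehmt1 and Ehmt2 and is linked to silent genes. At this age the testis cords hold gonocytes that are resuming division and turning into spermatogonia, some of which will keep the stem cell state while others enter differentiation. The cell cycle genes, the spermatogonial state genes and developmental genes, which H3K9 and Polycomb marks can keep silent, are therefore described by role below.

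Kdm3a had 12.1 and 14.3 RPKM in P3 DKO, against 28.4 and 26.3 RPKM in P3 Ctrl. Kdm3b had 4.26 and 4.48 RPKM in P3 DKO, against 10.2 and 13.5 RPKM in P3 Ctrl. Both fell, Kdm3a by 0.996 ± 0.11 and Kdm3b by 1.25 ± 0.21 on the log2 scale (SE), with limma adjusted p-values of 0.00645 and 0.0194, and the groups did not overlap. Transcript remained in P3 DKO for both genes, and the files do not separate reads of the deleted exons from reads of the rest of the transcript. The germ cell genes Ddx4, Dazl and Mael, which encode a helicase, a translation regulator and a transposon silencing factor, stood at 235 and 217, 393 and 347, and 390 and 338 RPKM in P3 DKO, against 238 and 251, 390 and 409, and 397 and 358 RPKM in P3 Ctrl.

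Of 24340 gene symbols, 14036 reached 1 RPKM in 2 or more of these libraries and were tested. At a limma adjusted p under 0.05, 787 genes passed (5.61%), with 394 higher (2.81%) and 393 lower (2.8%) in P3 DKO, and the libraries of the groups did not overlap at any of the 787. The genes that rose were mostly of low level and those that fell of high level, with median levels of 2.99 RPKM and 43.0 RPKM, against 10.5 RPKM over all tested genes. Of the 394, 124 were under 1 RPKM in both P3 Ctrl libraries and so were tested only through P3 DKO, and 8 of the 393 were under it in both P3 DKO libraries. Their median log2 changes were 0.90 and -0.59, and 143 of the higher and 37 of the lower genes changed at least 2-fold. The calls rest on both libraries of each group. Without P3 Ctrl replicate 2 only 4 genes were higher and 5 lower, and without P3 DKO replicate 2 only 8 and 11, while a fit of the 4 libraries alone called 29 and 21. The spread is shared across groups, and without either P7 Ctrl replicate 54 genes were higher and 52 lower.

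The 4 libraries also differed in a way that followed expression level across all genes. In genes with a mean under 2 RPKM the median log2 change was 0.31, and in genes with 100 RPKM or more it was -0.27. Each of the 4 pairings of a P3 DKO with a P3 Ctrl library showed this slope. A smaller slope of the same shape lay between the P3 Ctrl replicates, where replicate 1 minus replicate 2 gave 0.18 in the lowest class and -0.12 in the highest. The summed RPKM was 464450 and 458653 in P3 DKO, against 517597 and 544513 in P3 Ctrl, and 3853 and 3995 symbols were listed at 0 in P3 DKO, against 4419 and 4843 in P3 Ctrl. After cyclic loess normalization, which removes a slope of this kind and was chosen after seeing the data, 108 genes were higher and 103 lower, of which 98 and 74 were among those called without it. The part of this slope in each result was not tested. For several lists, though not for all, the median is therefore given beside a level-matched value. This value is the mean over a list's genes of the medians that all genes had in 7 classes of level.

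**Figure D1:**
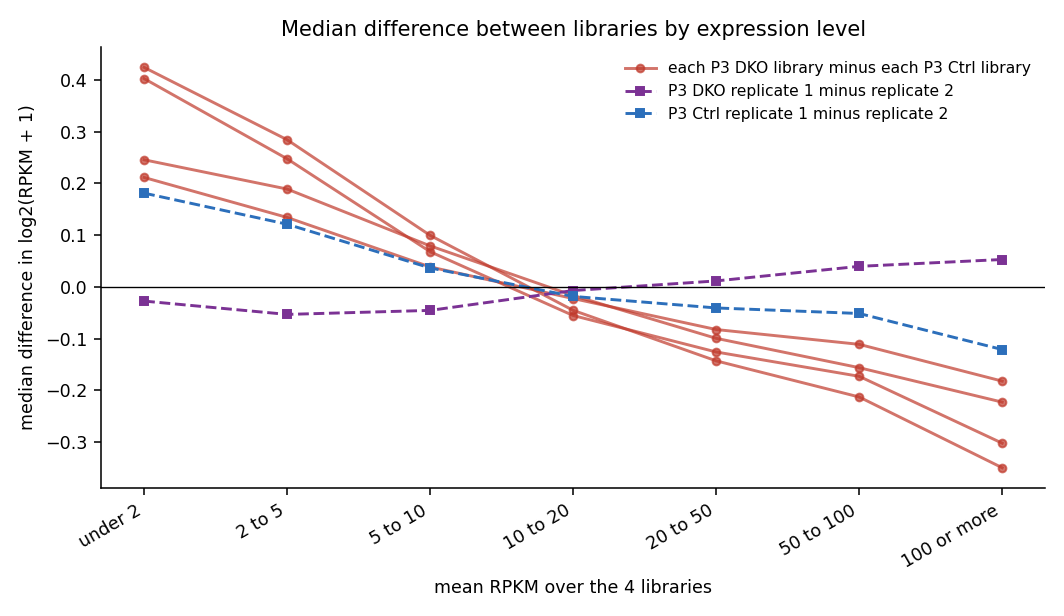
Median difference in log2(RPKM + 1) in 7 classes of mean RPKM. Red lines are each P3 DKO library minus each P3 Ctrl library, and dashed lines are differences between replicates of 1 group. All 4 red lines run from above 0 in the lowest class to below 0 in the highest, and the line of the P3 Ctrl replicates slopes the same way from 0.18 to -0.12.

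Genes of DNA replication were lower in P3 DKO as a group of 3 lists. Of 75 tested genes for origin licensing and the replicative helicase, for the fork, and for the supply of nucleotides, 26 fell and 0 rose, where 2.8% of all tested genes fell, and 73 of the 75 had a log2 change below 0. The median change of the 75 was -0.47, against 0.00 over all tested genes. The origin and helicase list gave 9 of 23 lower with a median of -0.52, the fork list 8 of 27 with a median of -0.44, and the nucleotide list 9 of 25 with a median of -0.47. Their level-matched values were -0.13, -0.15 and -0.12. With cyclic loess normalization 7 of the 75 passed, all lower, with a median of -0.29. No member passed once replicate 2 of either group was left out or in the fit of the 4 libraries alone, although the median stayed between -0.47 and -0.33 in those 3 fits. Without either P7 Ctrl replicate 8 of the 75 passed, all lower.

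Among the licensing genes, Mcm5, a subunit of the MCM helicase, had 68.9 and 67.6 RPKM in P3 DKO, against 119 and 147 RPKM in P3 Ctrl. Its log2 change was -0.94 ± 0.12 (SE, limma adjusted p = 0.0105). Mcm2, another subunit, had 113 and 98.3 RPKM in P3 DKO, against 170 and 199 RPKM in P3 Ctrl, and fell by 0.79 ± 0.11 on the log2 scale. Both P3 DKO libraries lay below both P3 Ctrl libraries for each subunit. Mcm3 fell by 0.70 and Cdt1, which loads the helicase onto origins, fell by 0.76, to 53.2 and 44.5 RPKM in P3 DKO against 81.2 and 85.1 RPKM in P3 Ctrl. Orc6, Cdc6, Mcm6, Mcm10 and Dbf4 completed the 9.

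At the fork, Pcna, the sliding clamp of the polymerases, had 181 and 167 RPKM in P3 DKO, against 250 and 288 RPKM in P3 Ctrl (log2 change -0.62 ± 0.10, SE, adjusted p = 0.0183). Fen1, the nuclease that trims Okazaki fragments, had 33.8 and 33.7 RPKM in P3 DKO, against 51.2 and 68.2 RPKM in P3 Ctrl (log2 change -0.79 ± 0.14, SE, adjusted p = 0.021). Clspn, an adaptor of the replication checkpoint, and Rpa2, a subunit of the single-strand binding protein, fell by 0.73 and 0.58. None of these genes had a P3 DKO library as high as a P3 Ctrl library.

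In nucleotide supply, Shmt2, the mitochondrial serine hydroxymethyltransferase that feeds the folate cycle, had 58.6 and 59.1 RPKM in P3 DKO, against 111 and 148 RPKM in P3 Ctrl. Its change of -1.11 ± 0.14 (SE, adjusted p = 0.0105) was the lowest of the 75. Dck, a salvage kinase for deoxynucleosides, had 18.3 and 19.3 RPKM in P3 DKO, against 28.4 and 34.4 RPKM in P3 Ctrl (log2 change -0.70, adjusted p = 0.0128). Umps, which makes uridine monophosphate, fell by 0.65, and Tk1, Dut, Pfas, Shmt1 and the ribonucleotide reductase subunits also passed. Slc7a5, a transporter of large amino acids, and Phgdh, the first enzyme of serine synthesis, were the other lower members of the 26 tested genes of amino acid stress and the unfolded protein response. Slc7a5 had 169 and 139 RPKM in P3 DKO, against 297 and 267 RPKM in P3 Ctrl. Phgdh had 135 and 154 RPKM in P3 DKO, against 210 and 257 RPKM in P3 Ctrl. Both groups were apart at each of the pair.

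**Figure D2:**
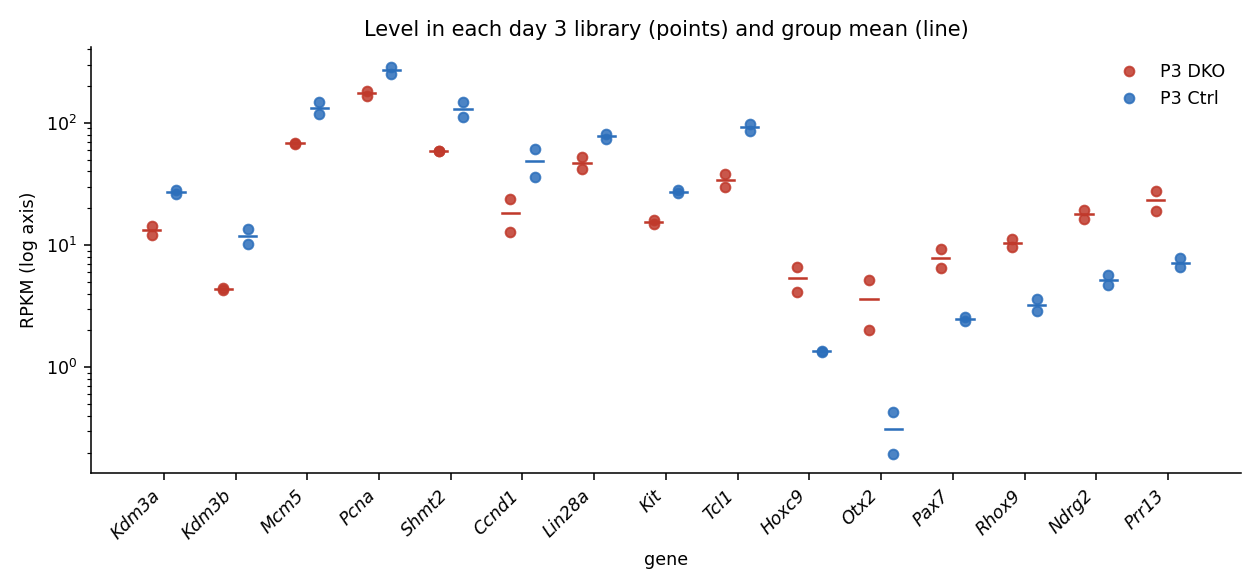
RPKM, on a log axis, of 15 genes in each of the 4 day 3 libraries, with P3 DKO points left of P3 Ctrl points and a line at each group mean. The 2 P3 DKO points lie below both P3 Ctrl points for the genes from Kdm3a to Tcl1 and above them for the genes from Hoxc9 to Prr13.

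Genes of this kind are classical targets of E2F factors, which bind near the start sites of S phase genes. Promoters of RefSeq (build GRCm38.p6, 250 bases before to 50 after a gene's start) were found for 62 of the 75 genes and searched on both strands for TTTGGCGC, TTTCCCGC and TTTCGCGC, which can overlap one another. Of the 62 promoters, 16 (25.8%) held at least 1 match, against 409 of 11095 (3.69%) for the 79.0% of tested genes with a promoter in the table, 515 of 27025 (1.91%) for all promoters of the table and 1 of 22 promoters of the G2 and mitosis list. The 16 genes had a median log2 change of -0.50, near the -0.47 of all 75, and 7 of them passed as lower. Those 7 were 29.2% of the 24 promoters found for the genes of these lists that passed, near the 25.8% of the 62. Whether a match goes with the fall was not tested. The promoters of 3 genes that fell are printed with every match in capitals, Mcm5 and Mcm6 for their overlapping matches and Cdc6 for a single one, chosen after their values were seen. Each line gives the 250 bases before the start, 5′ to 3′ on the gene's strand, at chr8:75109259-75109508 (plus strand), chr1:128359706-128359955 (minus strand) and chr11:98907901-98908150 (plus strand).
Mcm5: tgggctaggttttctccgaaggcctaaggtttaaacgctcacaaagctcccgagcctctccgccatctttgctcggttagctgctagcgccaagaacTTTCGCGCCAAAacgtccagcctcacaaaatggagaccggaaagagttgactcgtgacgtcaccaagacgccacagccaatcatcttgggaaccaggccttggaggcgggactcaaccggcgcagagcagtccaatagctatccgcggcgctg
Mcm6: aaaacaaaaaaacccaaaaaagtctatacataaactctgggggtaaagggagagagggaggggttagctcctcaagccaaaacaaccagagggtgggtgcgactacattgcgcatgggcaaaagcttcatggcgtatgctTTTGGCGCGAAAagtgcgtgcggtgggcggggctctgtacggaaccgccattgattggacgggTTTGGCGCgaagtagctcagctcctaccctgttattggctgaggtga
Cdc6: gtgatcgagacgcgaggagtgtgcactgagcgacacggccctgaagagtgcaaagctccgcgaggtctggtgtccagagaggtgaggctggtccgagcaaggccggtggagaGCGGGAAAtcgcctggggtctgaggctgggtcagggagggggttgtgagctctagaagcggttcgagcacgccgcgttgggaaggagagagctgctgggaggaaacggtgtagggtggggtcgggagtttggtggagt
The first base of the first match lies 153 bases before the start in Mcm5, 110 in Mcm6 and 138 in Cdc6. A match describes these letters and is not evidence of a factor bound there.

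Genes of G2 and mitosis had the lowest median of the lists, -0.64 over 27 tested members with a level-matched value of -0.12, but 4 passed, all of them lower. None of the 27 passed after cyclic loess, where the median was -0.46, after quantile normalization, with the 4 or the 10 day 3 libraries alone, or without P3 Ctrl replicate 2, P3 DKO replicate 2 or either P7 Ctrl replicate. The median was -0.39 without P3 Ctrl replicate 2, and 17 passed without Jmjd1aKO replicate 2 and Jmjd1bKO replicate 2 of day 3. Ndc80, a part of the kinetochore, had 28.0 and 27.4 RPKM in P3 DKO, against 38.2 and 41.4 RPKM in P3 Ctrl (log2 change -0.51 ± 0.12, SE, adjusted p = 0.0403). Incenp, the scaffold of the chromosomal passenger complex, fell by 0.69 with an adjusted p of 0.0495, and Ccna2 and Ccnb1 were the other 2. Of 26 cyclins, cell cycle inhibitors and E2F genes, 3 fell and 0 rose. Ccnd1, which encodes the G1 cyclin D1, had 12.9 and 23.9 RPKM in P3 DKO, against 36.0 and 60.6 RPKM in P3 Ctrl (log2 change -1.36 ± 0.33, SE, adjusted p = 0.0452). Its replicates lay far apart in both groups, and the wild-type group P3 WT had 130 and 125 RPKM. E2f1, an activating E2F, and E2f7, a repressing one, fell by 0.46 and 0.51, and the E2F partner Tfdp1 fell by 0.56, to 94.6 and 90.8 RPKM in P3 DKO against 122 and 153 RPKM in P3 Ctrl.

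Genes of the spermatogonial stem and progenitor state lay lower in P3 DKO as a list, yet few passed. The median of 33 tested members was -0.50, with a level-matched value of -0.10, and 2 rose and 2 fell. After cyclic loess normalization the median was -0.38, and 2 were higher and 0 lower. With the 4 libraries alone 0 passed, and with the 10 day 3 libraries 0 were higher and 2 lower. The median lay between -0.52 and -0.34 when any 1 of the 4 libraries was left out. Lin28a, an RNA-binding protein of undifferentiated spermatogonia, had 52.3 and 41.9 RPKM in P3 DKO, against 73.4 and 81.2 RPKM in P3 Ctrl (log2 change -0.71 ± 0.12, SE, adjusted p = 0.0201). Sox3, a transcription factor of progenitors, had 15.0 and 16.3 RPKM in P3 DKO, against 9.02 and 8.62 RPKM in P3 Ctrl. Pax7, which marks a rare stem cell subset, rose and Plvap, a gene of both stem cells and endothelium, fell. The receptors for the niche factor GDNF, Gfra1 and Ret, had log2 changes of -0.86 and -0.77 with adjusted p-values of 0.193 and 0.265, and Bcl6b, a GDNF target, had -1.12 with an adjusted p of 0.0627.

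Kit, the receptor that marks the step into differentiation, had 16.1 and 14.9 RPKM in P3 DKO, against 28.0 and 26.7 RPKM in P3 Ctrl (log2 change -0.78 ± 0.20, SE, adjusted p = 0.0495). It was 1 of 3 lower members among 19 tested genes of differentiating spermatogonia, beside Sohlh2 and Dnmt3b, and Dmrtb1 was the 1 higher member. The list median was 0.04. Of the 19, 0 passed after cyclic loess normalization, with the 4 libraries alone or with the 10 day 3 libraries. Of 28 tested genes of meiotic prophase 0 passed. The most abundant, Syce2, a protein of the synaptonemal complex, had 121 and 118 RPKM in P3 DKO, against 136 and 153 RPKM in P3 Ctrl, with an adjusted p of 0.297, and Syce3, of the same complex, had 105 and 122 RPKM in P3 DKO against 128 and 140 RPKM in P3 Ctrl. Of 23 general germ cell genes 1 rose, Dppa3, and 0 fell, with a list median of -0.06, or 0.20 after cyclic loess and 0.21 after quantile normalization.

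Tcl1, a cofactor of the AKT kinase known from embryonic stem cells, was among the 12 largest falls. It had 29.8 and 38.3 RPKM in P3 DKO, against 86.4 and 97.8 RPKM in P3 Ctrl (log2 change -1.42 ± 0.25, SE, adjusted p = 0.0218), and both libraries of P3 DKO stood well below those of P3 Ctrl. Lgals1, which encodes the lectin galectin-1, had 57.1 and 69.5 RPKM in P3 DKO, against 171 and 154 RPKM in P3 Ctrl (log2 change -1.35 ± 0.27, SE, adjusted p = 0.0274).

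Of 24 tested genes of the primordial germ cell and pluripotency list 5 rose and 0 fell. They were Otx2, Dppa5a, Dppa3, Klf4 and Lefty2, of which Otx2 and Lefty2 were under 1 RPKM in both P3 Ctrl libraries and tested only through P3 DKO, so nothing is read from the count. With a mean of at least 5 RPKM 2 of 12 rose, and after cyclic loess normalization 1 of 24. Lefty2, a secreted inhibitor of Nodal signalling, had 1.75 and 2.56 RPKM in P3 DKO, against 0.597 and 0.461 RPKM in P3 Ctrl (log2 change 1.03 ± 0.25, SE, adjusted p = 0.0417). It was also the 1 member of 26 tested genes of Nodal, BMP and TGF-beta signalling that passed. The pluripotency list had a median of 0.27 with a level-matched value of 0.11, and the median was 0.02 after cyclic loess normalization. Pou5f1, the central pluripotency factor, had 58.2 and 70.2 RPKM in P3 DKO against 113 and 118 RPKM in P3 Ctrl, a log2 change of -0.84 with an adjusted p of 0.0557.

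**Figure D3:**
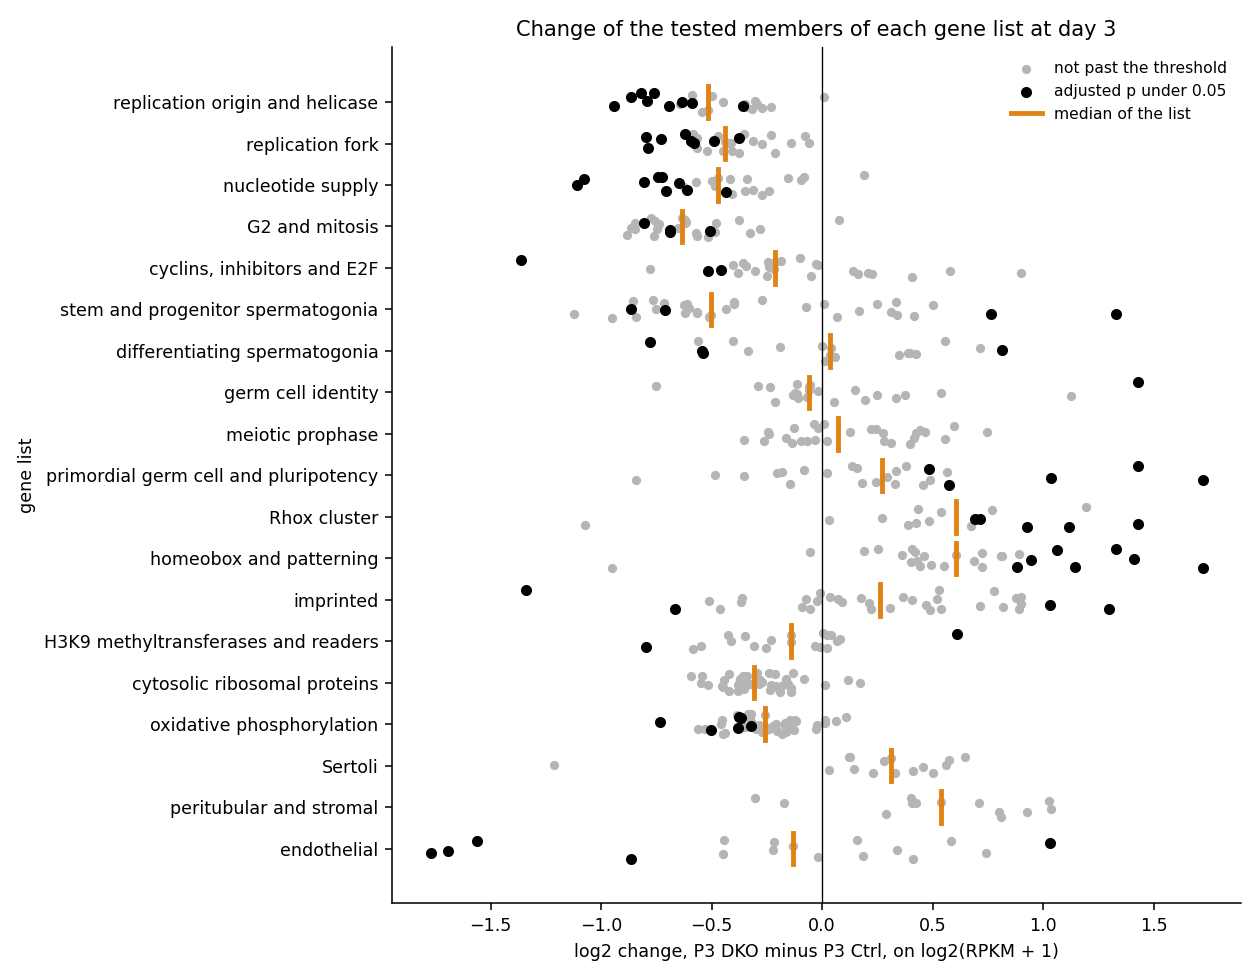
Log2 change, P3 DKO minus P3 Ctrl, of every tested member of 19 gene lists. Black points passed the threshold, grey points did not, and orange bars are list medians. The black points of the replication, nucleotide, mitosis, cyclin and oxidative phosphorylation lists all lie left of 0, and those of the pluripotency, Rhox and homeobox lists all lie right of 0.

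Homeobox and patterning genes, which instruct body axis and organ identity in the embryo, had higher levels in P3 DKO at most of the members tested. The list was not silent in the controls: it summed to 156 and 194 RPKM in P3 DKO, against 124 and 141 RPKM in P3 Ctrl. Of 45 listed genes 27 reached the level needed for a test, 7 of them only through P3 DKO, so the count is given without reading support from it: 7 rose and 0 fell, and 25 of the 27 changes were above 0. The median of the tested members was 0.61, with a level-matched value of 0.19, and 0.34 after cyclic loess normalization, which left 2 past the threshold. Hoxc9 had 4.13 and 6.61 RPKM in P3 DKO, against 1.36 and 1.33 RPKM in P3 Ctrl (log2 change 1.41 ± 0.22, SE, adjusted p = 0.0151), and neither group's replicates reached the other's. Otx2, which patterns the anterior brain, and Pax7 were among the others that rose, and so were Hoxa3, Pax2 and Meis2, each at under 4 RPKM in P3 DKO.

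The longest stretch of neighbouring genes that rose together lay in the HoxC cluster on chromosome 15, from 102921103 to 103036852 (GENCODE M21 on GRCm38). Neighbours were taken among tested genes in genomic order, and this stretch was chosen after its values were seen. It held Hoxc13, Hoxc10, Hoxc9, Hoxc8 and Hoxc4, each with its own P3 DKO libraries above both P3 Ctrl libraries. Hoxc10, Hoxc8 and Hoxc4 were under 1 RPKM in both P3 Ctrl libraries and were tested only through P3 DKO, and 4 of the 9 HoxC genes were not tested, so the length of the stretch depends on the filter. Hoxc10 had 1.67 and 4.71 RPKM in P3 DKO, against 0.408 and 0.406 RPKM in P3 Ctrl. Hoxc4 had 1.75 and 3.56 RPKM in P3 DKO, against 0.442 and 0.230 RPKM in P3 Ctrl. P3 DKO replicate 2 was the higher of its pair at all 5 genes. Over the 39 genes of the 4 Hox clusters the files' summed RPKM was 63.1 and 119 in P3 DKO, against 36.3 and 46.5 in P3 Ctrl. Of the 20 Hox genes tested, some only through P3 DKO, 19 had a log2 change above 0. The exception was Hoxb5, with 3.23 and 3.82 RPKM in P3 DKO against 3.89 and 4.48 RPKM in P3 Ctrl (log2 change -0.20). Other runs of called neighbours were shorter: 62 of 381 placed higher genes (16.3%) lay in 28 runs of 2 or more, and 39 of 378 placed lower genes (10.3%) in 19 runs.

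Genes of the X chromosome as a group were shifted upward. Of 509 tested X-linked genes 27 rose (5.30%) and 5 fell (0.98%), and of 13005 autosomal genes 358 rose (2.75%) and 377 fell (2.90%). Of the 509, 35 were under 1 RPKM in both P3 Ctrl libraries and tested only through P3 DKO, as were 551 of all 14036. Of the 27 that rose, 2 were among them. With the 4 libraries alone or the 10 day 3 libraries, 2 X-linked genes were higher and 0 lower, and after cyclic loess 12 and 0. The X median stayed between 0.20 and 0.22 when any 1 of the 4 libraries was left out. The median log2 change was 0.21 on the X and -0.01 on the autosomes, and single autosomes lay between -0.05 (chromosome 11) and 0.05 (chromosome 1). Each of the 4 pairings of a P3 DKO with a P3 Ctrl library gave an X median between 0.20 and 0.23 and an autosomal median between -0.01 and 0.01. The level-matched value for the X genes was 0.07, and the X median was 0.14 after cyclic loess normalization, against 0.00 on the autosomes. Without the Rhox genes it was 0.19. At day 7, in separate libraries, the X median was 0.32, with 179 genes higher and 40 lower in P7 DKO, and the autosomal median was 0.01. The chromosomes were compared after other results of these data were seen, and the medians describe genes, which are not replicates.

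**Figure D4:**
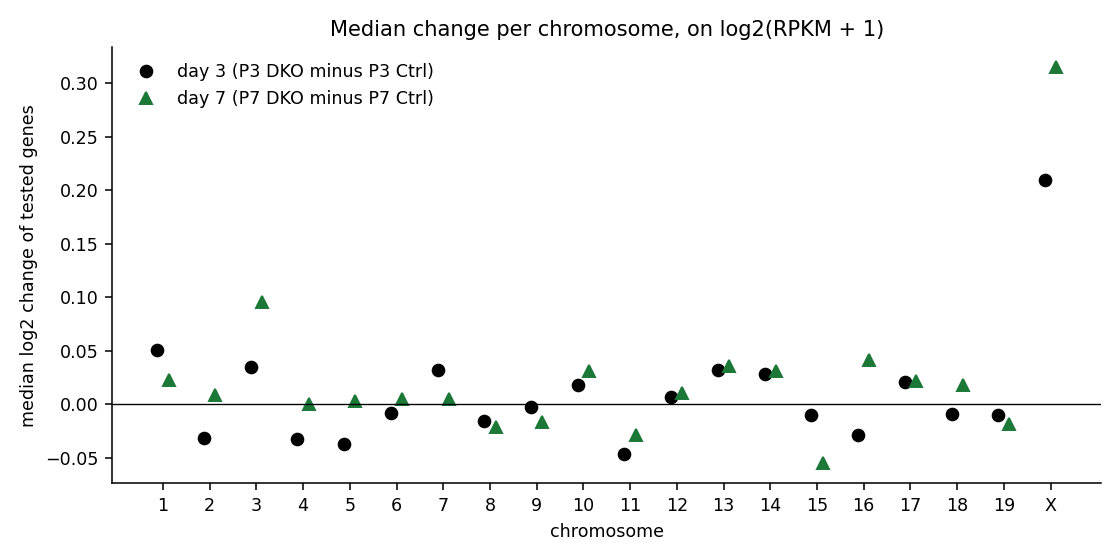
Median log2 change of the tested genes of each chromosome at day 3 (black circles, P3 DKO minus P3 Ctrl) and at day 7 (green triangles, P7 DKO minus P7 Ctrl). The X chromosome lies at 0.21 and 0.32, above every autosome at both ages.

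The Rhox genes, a family of reproductive homeobox genes clustered on the X, had higher levels in P3 DKO at nearly all members tested. Of 24 members 16 were tested, 3 of them only through P3 DKO. Of the 16, 5 passed as higher and 0 as lower, where 2.81% of all tested genes were higher. The tested members had a median of 0.61 with a level-matched value of 0.12, or 0.41 after cyclic loess normalization. With the 10 day 3 libraries alone 0 passed, and with the 4 libraries alone 1 passed. The median stayed between 0.52 and 0.62 when any 1 of the 4 libraries was left out. Rhox1 had 42.4 and 36.6 RPKM in P3 DKO, against 24.6 and 23.5 RPKM in P3 Ctrl (log2 change 0.69 ± 0.12, SE, adjusted p = 0.0194). Rhox2d had 6.53 and 6.93 RPKM in P3 DKO, against 3.80 and 3.63 RPKM in P3 Ctrl, and Rhox4d, Rhox9 and Rhox10 were the other 3. The exception was Rhox5, the member best known from Sertoli cells, with 13.5 and 18.8 RPKM in P3 DKO against 41.3 and 29.2 RPKM in P3 Ctrl and an adjusted p of 0.0919. Rhox2, Rhox3 and Rhox4 are families of near-identical copies, so the division of reads among their members is uncertain.

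Of 20 tested genes for H3K9 methyltransferases and readers 1 rose and 1 fell. Ehmt2, which encodes the methyltransferase G9a, rose and Uhrf1, which reads the mark at replication forks, fell. Ehmt1, the partner of Ehmt2, had 10.7 and 11.6 RPKM in P3 DKO against 13.4 and 17.4 RPKM in P3 Ctrl (limma adjusted p = 0.122). The list median was -0.14, with a level-matched value of -0.12, or 0.00 after cyclic loess normalization. Of 19 tested genes for other histone demethylases 0 passed in either direction, and their median was 0.04. The most abundant, Kdm1a, had 105 and 98.0 RPKM in P3 DKO, against 104 and 92.8 RPKM in P3 Ctrl, and Kdm2b had 100.2 and 104 RPKM in P3 DKO, against 94.2 and 91.2 RPKM in P3 Ctrl. Of 34 Polycomb genes 2 fell, Tfdp1 and Rbbp4, a histone chaperone shared by several complexes, which had 61.8 and 57.7 RPKM in P3 DKO against 80.5 and 98.1 RPKM in P3 Ctrl. Among 34 tested imprinted genes 2 rose and 2 fell: Peg10 and Mirg were higher, and H19 and Peg13 lower, with a list median of 0.26 and a level-matched value of 0.06. Peg13 had 0.982 and 0.891 RPKM in P3 DKO, against 2.24 and 1.91 RPKM in P3 Ctrl, and was tested only through P3 Ctrl. H19, a maternally expressed noncoding RNA, had 29.8 and 35.7 RPKM in P3 DKO, against 78.9 and 89.4 RPKM in P3 Ctrl.

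Of the 25 tested interferon and antigen presentation genes, 1 rose and 2 fell. H2-K1, a classical MHC class I chain, had 12.2 and 10.3 RPKM in P3 DKO, against 5.55 and 6.24 RPKM in P3 Ctrl (log2 change 0.83 ± 0.17, SE, adjusted p = 0.0307). Oasl2, an interferon-stimulated gene, had 1.28 and 1.73 RPKM in P3 DKO, against 3.02 and 3.92 RPKM in P3 Ctrl, and Ifi27l2a was the other that fell. MHC class I genes have close copies among which reads may be divided. Cd209c was the 1 member of 9 genes of the Cd209 lectin cluster to reach the test, and it had the largest rise of the named genes, with 374 and 137 RPKM in P3 DKO against 12.7 and 6.78 RPKM in P3 Ctrl. Its neighbours Cd209a, Cd209d, Cd209e, Cd209f and Cd209g were each under 0.1 RPKM in both P3 DKO libraries.

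Energy metabolism genes showed small shifts that depended on scaling. Of 47 tested genes of oxidative phosphorylation 6 fell and 0 rose with a median of -0.26, but the median was 0.01 after cyclic loess and 0.00 after quantile normalization, each with 1 gene higher and 0 lower. Atp5o, a subunit of the ATP synthase, had 322 and 324 RPKM in P3 DKO, against 427 and 493 RPKM in P3 Ctrl, Sdhc, of complex II, had 92.9 and 93.0 RPKM in P3 DKO, against 124 and 118 RPKM in P3 Ctrl, and Uqcrc1, of complex III, had 131 and 126 RPKM in P3 DKO, against 160 and 161 RPKM in P3 Ctrl. Of 44 cytosolic ribosomal protein genes 0 passed, and their median of -0.31 was 0.04 after cyclic loess and -0.01 after quantile normalization. The level-matched values of these lists were -0.24 and -0.26. Rplp1, the most abundant, had 3005 and 3064 RPKM in P3 DKO, against 3689 and 4247 RPKM in P3 Ctrl.

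Among 31 tested hypoxia and glycolysis genes 2 rose and 2 fell. Pdk1, the kinase that turns off pyruvate entry into mitochondria, had 13.6 and 13.5 RPKM in P3 DKO, against 24.8 and 26.3 RPKM in P3 Ctrl (log2 change -0.87 ± 0.13, SE, adjusted p = 0.0151). Vegfa, an angiogenic factor, moved the other way, with 5.77 and 6.58 RPKM in P3 DKO against 3.66 and 3.12 RPKM in P3 Ctrl. Ndrg2, a stress-responsive gene, rose, and the glycolytic enzyme gene Gpi1 fell. Jmjd1a is known as a hypoxia-induced gene in other cells, and the list as a whole had a median of 0.04. Of 21 tested p53 targets 2 rose and 0 fell: Plk2, a stress kinase, had 9.66 and 11.7 RPKM in P3 DKO, against 5.57 and 5.13 RPKM in P3 Ctrl, and Ccng1 had 27.6 and 35.1 RPKM in P3 DKO, against 19.3 and 20.7 RPKM in P3 Ctrl. The stress factor Atf5 rose by 0.59, with 9.94 and 10.4 RPKM in P3 DKO against 6.43 and 6.38 RPKM in P3 Ctrl. Of 9 tested members of the keratin list Krt17 fell and 0 rose, while 3 keratins outside that list, Krt26, Krt27 and Krt71, rose. The 3 were named after their values were seen, so nothing is read from their number. Krt26 and Krt71 were under 1 RPKM in both P3 Ctrl libraries and were tested only through P3 DKO. Krt27, a hair follicle keratin, had 12.2 and 14.5 RPKM in P3 DKO, against 6.23 and 6.91 RPKM in P3 Ctrl.

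Transcripts of marker lists of other testis cells were present in all 4 libraries, and fewer cells of a type cannot be told apart from less RNA per cell in bulk samples. Of 15 tested Sertoli markers 0 passed, and Amh, a hormone of immature Sertoli cells, had 3.24 and 5.91 RPKM in P3 DKO, against 3.09 and 3.84 RPKM in P3 Ctrl. The summed level of the Sertoli list was 191 and 211 RPKM in P3 DKO, against 193 and 188 RPKM in P3 Ctrl. That sum includes Trf, which was lower, with 22.3 and 23.8 RPKM in P3 DKO against 54.3 and 55.2 RPKM in P3 Ctrl (limma adjusted p = 0.0716). Of the 15 Sertoli changes 14 were above 0, with a median of 0.31 and a level-matched value of 0.15. The stromal list, where 0 of 13 passed, summed to 95.9 and 101 RPKM in P3 DKO, against 82.5 and 56.5 RPKM in P3 Ctrl. The stromal markers had a median of 0.54, and leaving out a Jmjd1aKO and a Jmjd1bKO library of day 3 with high Sertoli transcripts, Jmjd1aKO replicate 2 and Jmjd1bKO replicate 2, put 6 of the 13 past the threshold, all higher. Of 17 endothelial markers 4 fell and 1, Tek, rose. The 4 that fell, Sox18, Exoc3l, Gngt2 and Plvap, had both P3 DKO libraries below both P3 Ctrl libraries. Exoc3l had 3.20 and 3.52 RPKM in P3 DKO, against 13.7 and 12.5 RPKM in P3 Ctrl (log2 change -1.70 ± 0.13, SE, adjusted p = 0.000341), while the defining markers Cdh5 and Kdr had log2 changes of -0.13 and 0.34 with adjusted p-values of 0.708 and 0.229. The summed level of the endothelial list was 120 and 137 RPKM in P3 DKO, against 246 and 210 RPKM in P3 Ctrl. That sum includes the 4 genes that fell, of which Gngt2 had 27.7 and 31.4 RPKM in P3 DKO, against 105 and 75.8 RPKM in P3 Ctrl. The list median was -0.13, and 7 of the 17 changes were above 0. Pecam1, the first marker listed, had 8.93 and 7.86 RPKM in P3 DKO, against 17.4 and 7.95 RPKM in P3 Ctrl (limma adjusted p = 0.614). Tek, the angiopoietin receptor, had 3.49 and 4.04 RPKM in P3 DKO, against 1.53 and 1.14 RPKM in P3 Ctrl. None of 7 leukocyte, 3 Leydig and 1 erythroid markers tested passed, and Ptprc, Csf1r and Adgre1, which define blood leukocytes and macrophages, were under 1 RPKM in all 4 libraries. Other members of the leukocyte list were above that level. Cd68 had 3.59 and 2.36 RPKM in P3 DKO, against 7.43 and 4.28 RPKM in P3 Ctrl (limma adjusted p = 0.135). Mrc1 had 7.80 and 3.65 RPKM in P3 DKO, against 4.36 and 3.25 RPKM in P3 Ctrl (limma adjusted p = 0.465). The most abundant members of the leukocyte list had both P3 DKO libraries below both P3 Ctrl libraries without passing: Coro1a, an actin regulator, had 35.3 and 45.7 RPKM in P3 DKO, against 66.6 and 58.4 RPKM in P3 Ctrl (adjusted p = 0.19). Fcer1g, an Fc receptor chain, had 39.2 and 31.6 RPKM in P3 DKO, against 62.2 and 44.5 RPKM in P3 Ctrl (adjusted p = 0.406). The summed level of the list was 104 and 101 RPKM in P3 DKO, against 152 and 120 RPKM in P3 Ctrl, while its member H2-Ab1, an MHC class II chain, had 10.6 and 10.02 RPKM in P3 DKO, against 5.36 and 4.23 RPKM in P3 Ctrl (adjusted p = 0.141). The part of other cell types in the changes of germ cell genes was not tested.

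Several of the largest rises were outside the lists. Prr13 had 18.9 and 27.8 RPKM in P3 DKO, against 7.76 and 6.60 RPKM in P3 Ctrl (log2 change 1.55 ± 0.21, SE, adjusted p = 0.0105). Eml2, a microtubule-associated protein gene, had 13.0 and 16.3 RPKM in P3 DKO, against 5.62 and 3.57 RPKM in P3 Ctrl (log2 change 1.50 ± 0.19, SE, adjusted p = 0.0105). Serping1, which encodes the C1 inhibitor of the complement cascade, had 12 and 14.9 RPKM in P3 DKO, against 4.89 and 3.25 RPKM in P3 Ctrl. The groups did not overlap at any of these genes. Prelid2 rose by 1.50, and Ripk3, Gabbr1, Nol4, Klk1b24 and Dbhos completed the 12 largest rises with Cd209c, Otx2 and Ndrg2. Klk1b24, Dbhos and Otx2 were under 1 RPKM in both P3 Ctrl libraries and were tested only through P3 DKO. Klk1b24 had 3.89 and 1.87 RPKM in P3 DKO, against 0.105 and 0 RPKM in P3 Ctrl. Dbhos had 19.2 and 8.21 RPKM in P3 DKO, against 0.883 and 0.621 RPKM in P3 Ctrl. Dbhos lies opposite Dbh, and whether strand was used in the counting is not stated, so its reads cannot be told apart from those of its partner.

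The same genotypes at day 7 showed a partly different pattern. Of the 394 genes higher at day 3, 102 (25.9%) were higher and 50 (12.7%) lower in P7 DKO, where 18% of all tested genes were higher and 16.8% lower at that age. Of the 393 genes lower at day 3, 128 (32.6%) were lower and 85 (21.6%) higher in P7 DKO. The difference between the 2 changes passed for 57.9% of the first set and 60.8% of the second, against 24.5% of all tested genes, but these genes were chosen by their day 3 change, which is part of that difference. Most replication genes did not fall at day 7. Of the 75, 20 were higher and 5 lower in P7 DKO, with a median of 0.19, and for 38 of them the difference passed, each time in the more positive direction at day 7. Mcm5 had 148 and 139 RPKM in P7 DKO, against 112 and 117 RPKM in P7 Ctrl, and Pcna had 316 and 291 RPKM in P7 DKO, against 230 and 219 RPKM in P7 Ctrl.

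The stem and progenitor list had 23 of 33 members lower and 2 higher in P7 DKO, with a median of -1.94. Lin28a had 16.8 and 13.8 RPKM in P7 DKO, against 82.8 and 81.5 RPKM in P7 Ctrl, a change larger than that at day 3 by an adjusted p of 0.000592. Kit, which fell at day 3, had 12.3 and 14.1 RPKM in P7 DKO, against 8.10 and 7.26 RPKM in P7 Ctrl, and the changes differed with an adjusted p of 0.00514. The homeobox list had a median of -0.13 at day 7, with 2 members higher and 5 lower, and the difference passed for 11 members, all more negative at day 7. Hoxc9 had 0.369 and 0.577 RPKM in P7 DKO, against 0.443 and 0.286 RPKM in P7 Ctrl. Dmrt2, a DM domain gene, changed in opposite directions at the 2 ages (adjusted p of the difference 0.000288), with 5.25 and 7.13 RPKM in P3 DKO against 2.25 and 2.89 RPKM in P3 Ctrl, and 0.804 and 1.21 RPKM in P7 DKO against 11.8 and 11.8 RPKM in P7 Ctrl. H2-K1 rose further, with 31.4 and 45.3 RPKM in P7 DKO against 3.78 and 3.81 RPKM in P7 Ctrl. Of the 47 oxidative phosphorylation genes 33 were higher and 0 lower in P7 DKO. The Rhox list had 12 of 16 higher and 1 lower at day 7, with a median of 1.03.

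**Figure D5:**
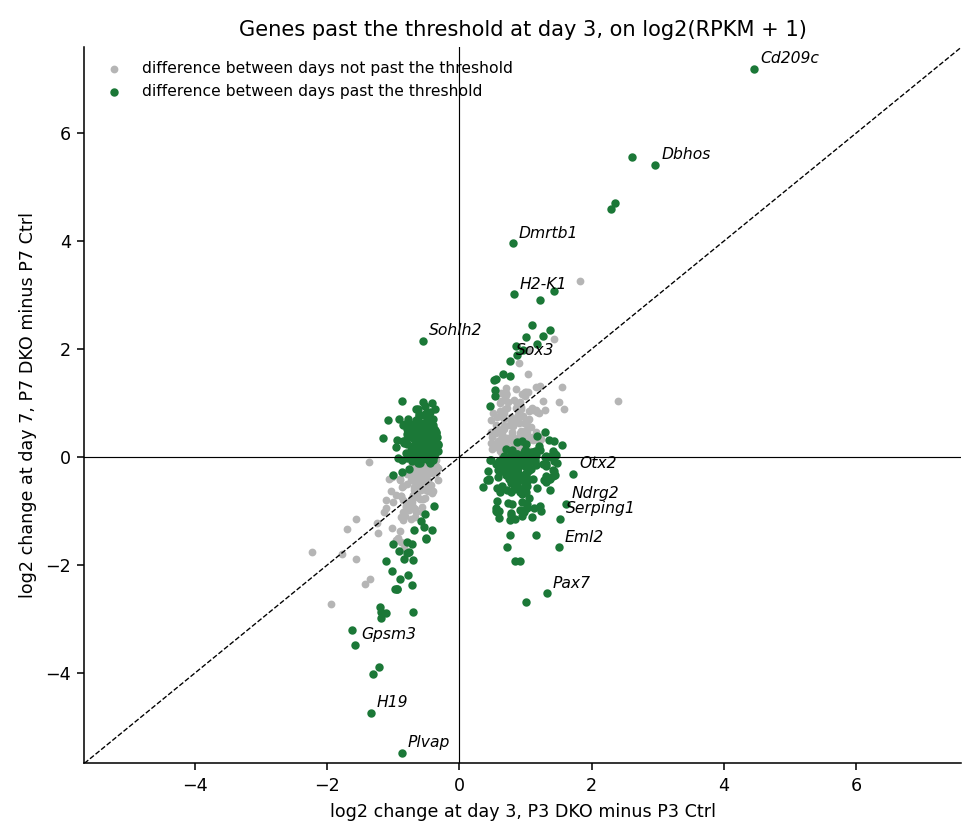
Log2 change at day 3 (horizontal axis, P3 DKO minus P3 Ctrl) and at day 7 (vertical axis, P7 DKO minus P7 Ctrl) of the genes past the threshold at day 3, small RNA loci left out. Green points have a difference between the days past the threshold, the dashed line marks equal change, and Cd209c and Dbhos lie far above it while Pax7, Plvap and H19 lie far below it.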

How the data were processed

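Male germ cell RNA, extracted with an AllPrep Micro kit, was sequenced as TruSeq Stranded mRNA LT libraries, per the labels' protocols. Per the submitters' processing notes TopHat2 2.1.1 and Cufflinks 2.1.1 were used with the mm10 genome. The authors deposited RPKM values for 24340 gene symbols per library, and neither the annotation nor the use of strand in the counting is given in the sources used here. The files hold no counts. Depth was estimated from the steps between RPKM values of genes with 1 annotated transcript, at 51.2 and 56.3 M (mega) fragments in P3 DKO and 44.2 and 48.8 M in P3 Ctrl. At these depths 83.4 to 86.6% of the genes used lay within 0.2 of a whole number. The depth and a length trim of 200 nt were chosen to bring these same values nearest to whole numbers. The 40% that unfitted values would give is therefore not the chance level of this fit. The depth is an approximation from which no interval was derived.

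The RPKM were put on the log2(RPKM + 1) scale and not rescaled. Genes that reached 1 RPKM in 2 or more of the 4 day 3 libraries entered tests with limma 3.58.1 in R 4.3.3 (lmFit, eBayes with trend), with 1 coefficient for each of 7 groups over all 14 libraries, 7 residual degrees of freedom and 2 libraries a group. Tests were two-sided with Benjamini-Hochberg adjustment over all tested genes and a threshold of 0.05. The contrasts were P3 DKO minus P3 Ctrl, P7 DKO minus P7 Ctrl, and the day 7 change minus the day 3 change. Log2 changes had a median SE of 0.18. In a test on simulated data of 14036 genes, the test of P3 DKO against P3 Ctrl recovered 67% of those changed by a log2 of 1 and 94% of those changed by 2, with 8 false calls. The simulated libraries had independent noise and no slope with level. Changes were put only in genes with a mean log2(RPKM + 1) above 2 in P3 Ctrl. Recovery in genes of lower level, and false calls under the slope seen in these libraries, were therefore not tested.

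The comparison, the members of the 25 gene lists and 6 marker lists, and the tests were chosen with earlier results of these data known, so the lists lend no independent support. Lists are described by counts and medians only. Genes were named by a rule: the targeted pair, the 12 largest rises and 12 largest falls past the threshold with groups apart, up to 4 passing members of each list by smallest p or, with none, the 2 most abundant, the first 2 markers of each cell type, and up to 6 passing genes with the largest difference from day 7. Other genes are named where a count of a list is spelled out or a contrast within it is described, after their values were seen. Predicted genes (37 of the 787 called) and small RNA loci (8, of which 4 higher and 4 lower) were counted and not named, since an mRNA kit does not measure mature small RNAs. The rule took 2 more genes, which are not reported here by name and remain in all fits and list counts. For 95.8% of the symbols a position was found in GENCODE M21 (GRCm38). Alternatives changed the pseudocount, the filter, the scaling, the libraries that share the spread, the replicate block and the small RNA loci, and left out each P3 and P7 library of DKO and Ctrl in turn.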

Additional observations from a re-analysis of the deposited data

Results flagged for a closer look

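Of the named genes called at day 3, 42 also had a change at day 7 that differed from the change at day 3, by limma's test of the difference itself with an adjusted p under 0.05. Each value below is the log2 change in P7 DKO against P7 Ctrl minus the log2 change in P3 DKO against P3 Ctrl. The genes were chosen by their day 3 change, which is part of the difference, and 24.5% of all tested genes passed the same test.

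Genes of DNA replication and the cell cycle, all lower in P3 DKO, were more positive at day 7. The differences were 1.26 for Mcm5, 0.54 for Cdt1, 0.79 for Mcm2 and 1.05 for Mcm3 among the licensing genes, 1.06 for Pcna, 1.32 for Fen1 and 0.75 for Rpa2 at the fork, 0.90 for Rrm1 and 0.82 for Umps in nucleotide supply, and 1.08 for Ccna2 and 0.78 for Rbbp4. Metabolic genes that were lower at day 3 were also more positive at day 7, with differences of 0.83 for Atp5o, 1.26 for Atp5a1, 0.56 for Uqcrc1, 0.60 for Pdk1 and 0.92 for Phgdh.

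Genes of the germ cell state moved both ways. The difference was positive for 4 genes, at 3.14 for Dmrtb1, 2.69 for Sohlh2, 1.49 for Kit and 1.02 for Sox3. It was negative at -3.85 for Pax7, -4.60 for Plvap, -1.65 for Lin28a, -1.50 for Dppa3, -2.02 for Otx2, -1.30 for Hoxc9 and -3.68 for Dmrt2. Pax7 had 0.0392 and 0 RPKM in P7 DKO, against 4.82 and 4.88 RPKM in P7 Ctrl, after being higher in P3 DKO.

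Of the largest changes at day 3, those of Cd209c and Dbhos grew at day 7, by 2.72 and 2.44. The differences of the other rises were -3.17 for Eml2, -2.67 for Serping1, -2.47 for Ndrg2 and -1.33 for Gabbr1, and of the other falls -1.57 for Nxph4 and -1.90 for Gpsm3. Eml2 had 1.58 and 1.6 RPKM in P7 DKO, against 7.02 and 7.46 RPKM in P7 Ctrl. Among imprinted genes the difference was -3.39 for H19, -1.30 for Mirg and -0.84 for Peg10. In the immune and stress lists it was 2.18 for H2-K1, -1.05 for Oasl2 and 1.01 for Plk2. For the targeted gene Kdm3a it was -0.61.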

How the results depend on the processing

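With 394 genes higher and 393 lower in P3 DKO and 3440 genes whose change differed between day 7 and day 3, leaving out 1 library gave 4 to 411 higher, 5 to 519 lower and 1674 to 3378 different. Leaving out P3 Ctrl replicate 2 gave 4 and 5, P3 DKO replicate 2 gave 8 and 11, P3 DKO replicate 1 gave 78 and 76, and P3 Ctrl replicate 1 gave 93 and 156, and either P7 Ctrl replicate, left out after seeing the data, gave 54 and 52, where the lone sample is assumed to vary like the other groups. For the difference from day 7, 1697 genes remained without P7 Ctrl replicate 1, 1674 without P7 Ctrl replicate 2, 1795 for P3 DKO replicate 2 and 2146 for P3 Ctrl replicate 2. Spread from the 10 day 3 libraries gave 35 higher and 66 lower, and from the 4 libraries alone 29 and 21. Without the pair of day 3 single knockout libraries with high Sertoli transcripts there were 1181 and 926. Cyclic loess gave 108 and 103, a pseudocount of 0.1 gave 139 higher, a mean of at least 5 RPKM 123 higher and no filter 1046 higher. A 2-fold limit left 143, 37 and 1625 genes.

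With the replicate number as a replicate block the fit gave 682 higher and 703 lower, and 4237 differences. The deviations of same-numbered P3 DKO and P3 Ctrl libraries correlated at 0.17 across genes, with 2 pairs and no label that ties a number to an animal, litter or day, so the numbers are not treated as pairs.

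The other counts were within 1.5 times of those reported. Of 82 named calls, 79 missed the threshold when P3 Ctrl replicate 2 was left out, 76 for P3 DKO replicate 2, 67 with the 4 libraries alone, 60 with the 10 day 3 libraries, 58 for P3 DKO replicate 1, 48 after cyclic loess, 44 for P3 Ctrl replicate 1 and 21 with a pseudocount of 0.1. The cause was not tested. With 2 libraries a group and low-level genes such as the Hox members near 1 RPKM, small changes are not detectable here.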

Other observations

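The levels of several genes described above in the single knockout and wild-type libraries of day 3 are given as values, without a test. They were picked from many and do not stand for all genes called. Hoxc9, Tcl1, Rhox1 and Pdk1 had P3 Jmjd1aKO means nearer to P3 DKO than to P3 Ctrl. Plvap and Lgals1 did not. Plvap had 16.7 and 21.3 RPKM in P3 Jmjd1aKO, against 7.20 and 9.38 in P3 DKO and 15.0 and 16.7 in P3 Ctrl. Lgals1 had 112 and 206 RPKM in P3 Jmjd1aKO, against 171 and 154 in P3 Ctrl. Hoxc9 had 3.96 and 3.03 RPKM in P3 Jmjd1aKO and 1.27 and 0.677 RPKM in P3 Jmjd1bKO, against 0.220 and 0.240 RPKM in P3 WT. Tcl1 had 45.7 and 38.9 RPKM in P3 Jmjd1aKO and 97.7 and 84.4 RPKM in P3 Jmjd1bKO, against 88.8 and 84.1 RPKM in P3 WT. Rhox1 had 35.2 and 34.6 RPKM in P3 Jmjd1aKO and 24.4 and 19.8 RPKM in P3 Jmjd1bKO, against 14.2 and 12.6 RPKM in P3 WT. Pdk1, a metabolic gene lower in P3 DKO, had 16.8 and 16.2 RPKM in P3 Jmjd1aKO and 27.2 and 29.1 RPKM in P3 Jmjd1bKO, against 39.6 and 40.3 RPKM in P3 WT.

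Short runs of neighbouring genes that rose in P3 DKO, besides that of the HoxC cluster, included Slc25a41, Slc25a23 and Crb3 on chromosome 17, Tcaf1, Arhgef5 and Nobox on chromosome 6, and Klc3, Ckm and Mark4 on chromosome 7. The 1 run of 3 that fell held Ndufa4l2, Shmt2 and Nxph4 on chromosome 10. The runs were found after values were seen.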
